A study of Mus musculus with 11 samples.

Results

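Slc12a5 and 8 relatives or regulators, the cation-chloride cotransporters of the Slc12a family and the kinases that control them, were followed in ganglion cells of the mouse retina with and without Tbr1. The set is 9 genes of the 24421 in the count files, taken by exact gene symbol, namely the cotransporters Slc12a5, Slc12a2, Slc12a4, Slc12a7 and Slc12a9 and the kinases Wnk1, Wnk2, Stk39 and Oxsr1. All 9 were listed in the files, and 8 passed the filter on low counts, with Slc12a4 left out. The set was chosen by function with the measured values of the same Tbr1 KO against WT comparison in view, so the values of these 9 genes in it are given as a description, with no test.

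The cells were J-RGCs, retinal ganglion cells that respond to a direction of motion and are known for expressing Jam2. They carried Green Fluorescent Protein from a transgenic line specific to the type. Each library was made from a pool of 100 sorted cells taken at postnatal day 4 to 5. Tbr1 KO and WT mice shared a mixed C57BL/6 and CD1 background, and the reporter was carried in both genotypes. The 6 Tbr1 KO libraries came from 4 animals, with libraries 1 and 2 from KO animal a, 3 and 4 from KO animal b, 5 from KO animal c and 6 from KO animal d. The 5 WT libraries also came from 4 animals, with library 1 from WT animal a, 2 and 3 from WT animal b, 4 from WT animal c and 5 from WT animal d. The extent of the Tbr1 deletion is not stated in the labels.

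Cation-chloride cotransporters set the chloride gradient across the neuronal membrane, and with it the sign of the response to GABA and glycine. NKCC1, encoded by Slc12a2, carries chloride into the cell, and the KCC family, of which Slc12a5 encodes the neuron-specific member KCC2, carries it out. In many neurons KCC2 increases during maturation, which turns GABA responses from depolarising to hyperpolarising. WNK kinases activate the kinases SPAK (Stk39) and OSR1 (Oxsr1), which phosphorylate both arms of this system, activating NKCC1 and inhibiting the KCCs.

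Slc12a5 lies on the plus strand of GRCm38 chromosome 2, from 164960802 to 164999731, and RefSeq gives a start site in each of 2 windows there. They are shown because Slc12a5 is the gene in the set whose level differed most clearly between genotypes and because Tbr1 is a T-box factor. Each window runs from 250 bases before to 50 bases after a start, on the plus strand of GRCm38.p6. The first, chr2:164960596-164960895, and the second, chr2:164967738-164968037, are printed 5′ to 3′ with motif matches in capitals.
Slc12a5 upstream start: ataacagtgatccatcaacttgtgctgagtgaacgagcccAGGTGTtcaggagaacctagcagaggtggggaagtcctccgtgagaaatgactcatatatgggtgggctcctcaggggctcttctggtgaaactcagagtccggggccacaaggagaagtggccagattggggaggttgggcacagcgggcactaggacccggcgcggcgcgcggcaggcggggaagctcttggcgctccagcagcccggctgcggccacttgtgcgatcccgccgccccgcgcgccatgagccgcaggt
Slc12a5 downstream start: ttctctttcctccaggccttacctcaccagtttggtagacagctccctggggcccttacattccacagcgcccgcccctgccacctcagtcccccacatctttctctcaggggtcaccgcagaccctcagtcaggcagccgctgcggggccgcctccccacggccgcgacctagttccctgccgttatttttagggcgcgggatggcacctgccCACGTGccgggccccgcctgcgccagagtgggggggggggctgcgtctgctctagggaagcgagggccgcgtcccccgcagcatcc
The capitals mark AGGTGT, the core of the T-box motif, in the upstream window and the E-box CACGTG, which USF factors bind, in the downstream window. Both strands were searched. AGGTGT is held by 13.7% and CACGTG by 7.15% of the 32851 RefSeq windows of the same length. The longer T-box half-site AGGTGTGA, which contains AGGTGT and is held by 1.28% of all windows, was in neither. RefSeq windows were found for 8 of the 9 genes. Over their 10 windows, AGGTGT stood in 3, AGGTGTGA in 0 and CACGTG in 4. The windows of Slc12a7 overlap and hold the same CACGTG, so the 4 windows belong to 3 genes. A match is a run of letters, not a bound site. The gene is known to make a longer and a shorter KCC2 protein from alternative first exons, and counts per gene do not separate these.

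Reads counted over genes ranged from 8609845 to 34718693 per library, and 13897 to 15440 genes were detected. Markers of ganglion cells, 10 genes such as Rbpms, Pou4f2 and Slc17a6, summed to 14960 to 16824 CPM (TMM-normalised counts, scaled to library size) in KO animals and 14880 to 17272 CPM in WT animals. Jam2, the marker of the type, was at 87.4 to 130.2 CPM in KO animals and 452 to 619 CPM in WT animals. Tbr1 itself averaged 120 ± 23.4 CPM in KO animals and 170 ± 16.5 CPM in WT animals (SD, n = 4 each), with every KO animal below every WT animal. Counts over a whole gene take in any exons left by the deletion, so this level does not check the labels. Photoreceptor markers summed to 20.7, 160.2, 689 and 149 CPM in KO animals a to d, against 16.4, 33.2, 56.1 and 175 CPM in WT animals a to d. Bipolar markers summed to 55.1 to 262 CPM in KO animals and 54.0 to 91.7 CPM in WT animals. The summed markers of 3 other classes did not overlap between genotypes. They were 310.3 to 336 CPM in KO animals and 262 to 289 CPM in WT animals for amacrine cells, 33.4 to 43.7 CPM in KO and 17.9 to 27.8 CPM in WT animals for horizontal cells, and 451 to 544 CPM in KO and 220 to 353 CPM in WT animals for Müller glia and progenitors. Vascular, microglial and astrocyte markers summed to 15.95 to 55.8 CPM in KO animals and 22.2 to 68.1 CPM in WT animals, and red blood cell markers to 0.752 to 5.56 CPM in KO and 0.958 to 4.36 CPM in WT animals. The mean log2 level of the ganglion cell markers was 9.95 ± 0.08 in KO animals and 10.13 ± 0.06 in WT animals (SD, n = 4 each), lower in KO animals. For amacrine markers this mean was 1.92 ± 0.48 in KO and 1.98 ± 0.58 in WT animals, so the higher sum did not hold for the list as a whole. It was 1.45 ± 0.42 in KO and 0.94 ± 0.48 in WT animals for horizontal markers. For Müller and progenitor markers it was 3.92 ± 0.59 in KO and 3.13 ± 0.92 in WT animals. In KO animals 3 of 10 tested ganglion cell, 9 of 9 photoreceptor, 3 of 3 bipolar, 5 of 6 amacrine, 4 of 4 horizontal, 9 of 9 Müller and progenitor and 1 of 6 vascular, microglial and astrocyte markers had a positive log2 fold change, and 2 of them, Clu and Dkk3 of the Müller list, passed the edgeR test. Jam2, lower in KO animals, also passed the edgeR test. Of the markers, Lhx1 of horizontal cells and Hba-a1, Hbb-bt and Hbb-bs of red blood cells had 0 counts in all libraries. An exact two-sided permutation test of the mean log2 level of each list over animals gave adjusted p of 0.129 to 0.971 over the 9 lists (Benjamini-Hochberg), with an unadjusted p of 0.0286, the smallest that 4 against 4 animals allow, for the ganglion cell markers and Jam2.

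Slc12a5, encoding KCC2, was counted at 0.469 times the WT level in the Tbr1 KO animals. Its level was 32.3, 35.1, 33.6 and 19.8 CPM in KO animals a to d, against 65.2, 59.1, 58.7 and 74.7 CPM in WT animals a to d. All 4 KO animals lay below all 4 WT animals, and the highest KO animal was well short of the lowest WT animal. The means were 30.2 ± 7.0 CPM in KO animals and 64.4 ± 7.48 CPM in WT animals (SD, n = 4 each), and the fitted log2 fold change was -1.09 ± 0.21 (SE). In 1 bulk pool, fewer cells expressing a gene and less RNA per cell cannot be told apart.

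The separation also held library by library. Slc12a5 was at 25.9 and 44.6 CPM in the pools of KO animal a, 31.8 and 40.8 CPM in those of KO animal b, 33.5 CPM in KO animal c and 19.8 CPM in KO animal d. WT animal a gave 64.9 CPM, the pools of WT animal b 58.5 and 60.4 CPM, WT animal c 58.5 CPM and WT animal d 74.5 CPM. All 6 KO libraries were below all 5 WT libraries. The pools of 1 animal differed by 1.72-fold and 1.28-fold in KO animals a and b and by 1.03-fold in WT animal b. These values rest on 633 to 1133 reads per KO library and 519 to 2380 reads per WT library.

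KO animal d was the lowest for Slc12a5, and without it the log2 fold change was -0.94. Over the fits that each left out 1 animal it ranged from -1.17 to -0.94. KO animals a and c, with the lowest and the highest photoreceptor sums of the KO animals (20.7 and 689 CPM), had 32.3 and 33.6 CPM of Slc12a5, and without KO animal c the log2 fold change was -1.14. The amacrine, horizontal and Müller sums, higher in every KO animal than in every WT animal, also separate the genotypes. The part of these and of the other marker lists in the difference was not tested.

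**Figure D1:**
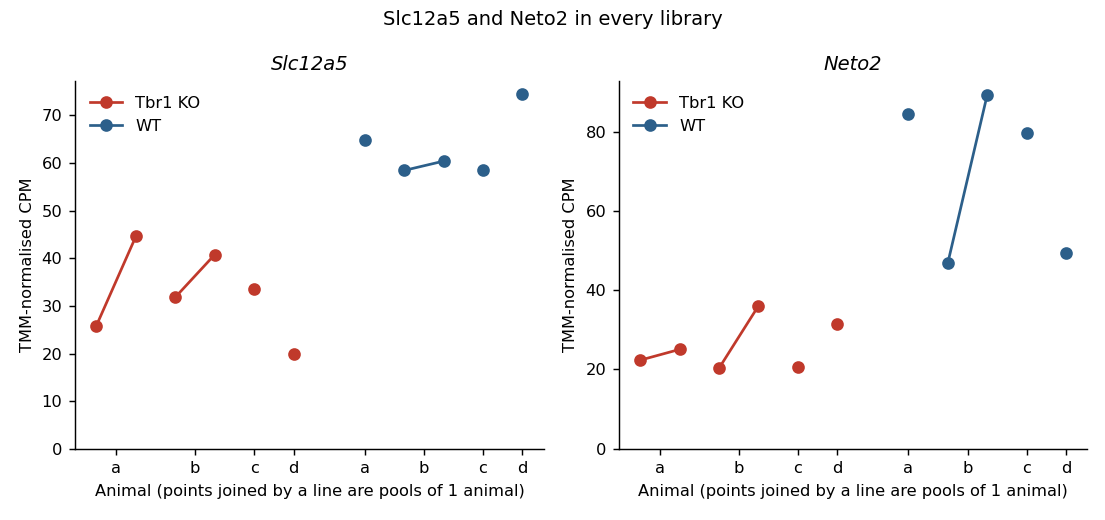
TMM-normalised CPM of Slc12a5 (left) and Neto2 (right) in each library, Tbr1 KO animals a to d left of WT animals a to d, with pools of the same animal joined by a line. The 6 KO libraries sit between 19.8 and 44.6 CPM for Slc12a5 and between 20.3 and 36.0 CPM for Neto2, all below the 5 WT libraries.

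Across all tested genes, 40 of 13957 (0.287%) had a Benjamini-Hochberg adjusted p under 0.05 by edgeR's quasi-likelihood fit, 28 lower (0.201%) and 12 higher (0.0860%) in KO animals. Of the 8 genes of the set in that fit, 0 were among them by edgeR and 1 had an unadjusted p under 0.05, as did 7.09% of all genes. By DESeq2 the count was 1 of the 8, where 1.65% of the genes given an adjusted p were called. Since the set was chosen with this comparison known, these counts are no test of its genes. The animals of the genotypes did not overlap for 1 of the 8, and for 5.06% of all genes. That 1 was Slc12a5, with all KO animals below all WT animals, where 2.48% of all genes showed that order, and for 0 of the 8 all KO animals lay above, where 2.58% of all genes did. Nothing is read from these counts either. The median log2 fold change was -0.13 over the 8 genes, 6 of them lower and 2 higher, and -0.00071 over all tested genes.

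Slc12a4 and Slc12a7, which encode other outward transporters, were barely counted. Slc12a4, encoding the broadly expressed KCC1, had 49 reads in KO library 2, 46 in KO library 3 and 15 in KO library 5, and 0 reads in the other KO libraries, against 1 read in WT library 2 and 0 in the other WT libraries. It was thus counted in 3 of 6 KO libraries and 1 of 5 WT libraries, in each KO animal by at most 1 pool, and it did not pass the filter. Its exons also overlap those of Gm16156 on the opposite strand. A count of 3 reads, the limit that a count of 0 allows for counting error alone, equals 0.0864 to 0.348 CPM over the libraries.

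Slc12a7, encoding KCC4, was at 0.780, 2.35, 0.237 and 2.57 CPM in KO animals a to d, against 0, 1.48, 2.53 and 2.04 CPM in WT animals a to d. Both pooled KO animals had 0 reads in 1 of their pools, and the pools of WT animal b differed by 10.8-fold. Its log2 fold change of -0.03 ± 1.32 (SE) took either sign when 1 animal was left out, from -0.43 to 0.34.

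Slc12a2, encoding the inward transporter NKCC1, was low and uneven in both genotypes. It was at 11.8, 1.06, 4.21 and 6.27 CPM in KO animals a to d, against 17.2, 4.38, 4.24 and 3.80 CPM in WT animals a to d. WT animal a stood far above the other WT animals, and the genotypes overlapped. The pools of KO animal b, at 0.173 and 2.54 CPM, differed by 14.6-fold, and those of KO animal a, at 7.56 and 19.7 CPM, by 2.60-fold. The log2 fold change of Slc12a2 was -0.35 ± 0.73 (SE), 0.50 without WT animal a, 0.00 without KO animal b and -0.95 without KO animal a.

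Slc12a9, an orphan member of the family whose transported ions are not settled, was at 21.0, 31.8, 21.7 and 25.6 CPM in KO animals a to d. In WT animals a to d it was at 43.8, 23.9, 19.5 and 16.6 CPM. The genotypes overlapped throughout, with WT animal a the highest of all. The pools of KO animal b, at 43.3 and 13.0 CPM, differed by 3.33-fold. Its log2 fold change was -0.05 ± 0.31 (SE), and 0.33 without WT animal a, 0.03 without KO animal a, 0.02 without KO animal c and -0.21 without WT animal d.

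The kinases upstream of the cotransporters were counted in every library and overlapped between genotypes. Wnk1, a WNK kinase at the top of the cascade, was at 112, 138, 143 and 139 CPM in KO animals a to d, against 112, 127, 106 and 94.1 CPM in WT animals a to d. In 3 of the 4 KO animals it was above all WT animals, with KO animal a inside the WT range. Its log2 fold change was 0.28 ± 0.14 (SE), and 0.22 to 0.35 when 1 animal was left out. Pools of 1 animal differed by 1.11-fold to 1.18-fold for Wnk1, the narrowest such range among the genes of the set measured in all 3 pairs.

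Wnk2, a WNK kinase known from brain, was at 62.1, 70.4, 59.6 and 62.4 CPM in KO animals a to d, against 101, 73.7, 60.4 and 58.8 CPM in WT animals a to d. Apart from WT animal a the values of both genotypes lay together. The log2 fold change of Wnk2 was -0.21 ± 0.19 (SE), -0.01 without WT animal a and -0.30 without WT animal d.

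Stk39, encoding SPAK, was at 41.0, 60.0, 29.7 and 18.2 CPM in KO animals a to d, against 18.5, 34.0, 38.1 and 30.0 CPM in WT animals a to d. KO animal d and WT animal a were the lowest and KO animals a and b the highest. The log2 fold change was 0.30 ± 0.34 (SE), -0.03 without KO animal b and 0.53 without KO animal d. Stk39, like Slc12a5, lies on the same chromosome as Tbr1, at chromosome 2, 68210445 to 68472268 on the minus strand.

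Oxsr1, encoding OSR1, was at 35.9, 26.3, 35.2 and 29.5 CPM in KO animals a to d, against 66.5, 34.8, 24.5 and 34.2 CPM in WT animals a to d. WT animal a was again the highest, and the other 7 animals overlapped. Its log2 fold change was -0.33 ± 0.29 (SE), 0.03 without WT animal a and -0.51 without WT animal c. WT animal a was thus the highest WT animal for 4 of the 8 tested genes, Slc12a2, Slc12a9, Wnk2 and Oxsr1, while Slc12a5 was highest in WT animal d. WT animal a had the lowest photoreceptor and Müller sums of the WT animals, at 16.4 and 220 CPM. Its vascular, microglial and astrocyte sum was the highest of them, at 68.1 CPM. Its library also had the fewest genes detected of the 11 libraries, 13897 at 24830192 reads in genes, against 14241 in WT library 3 at 8609845. The part of these in its levels was not tested.

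**Figure D2:**
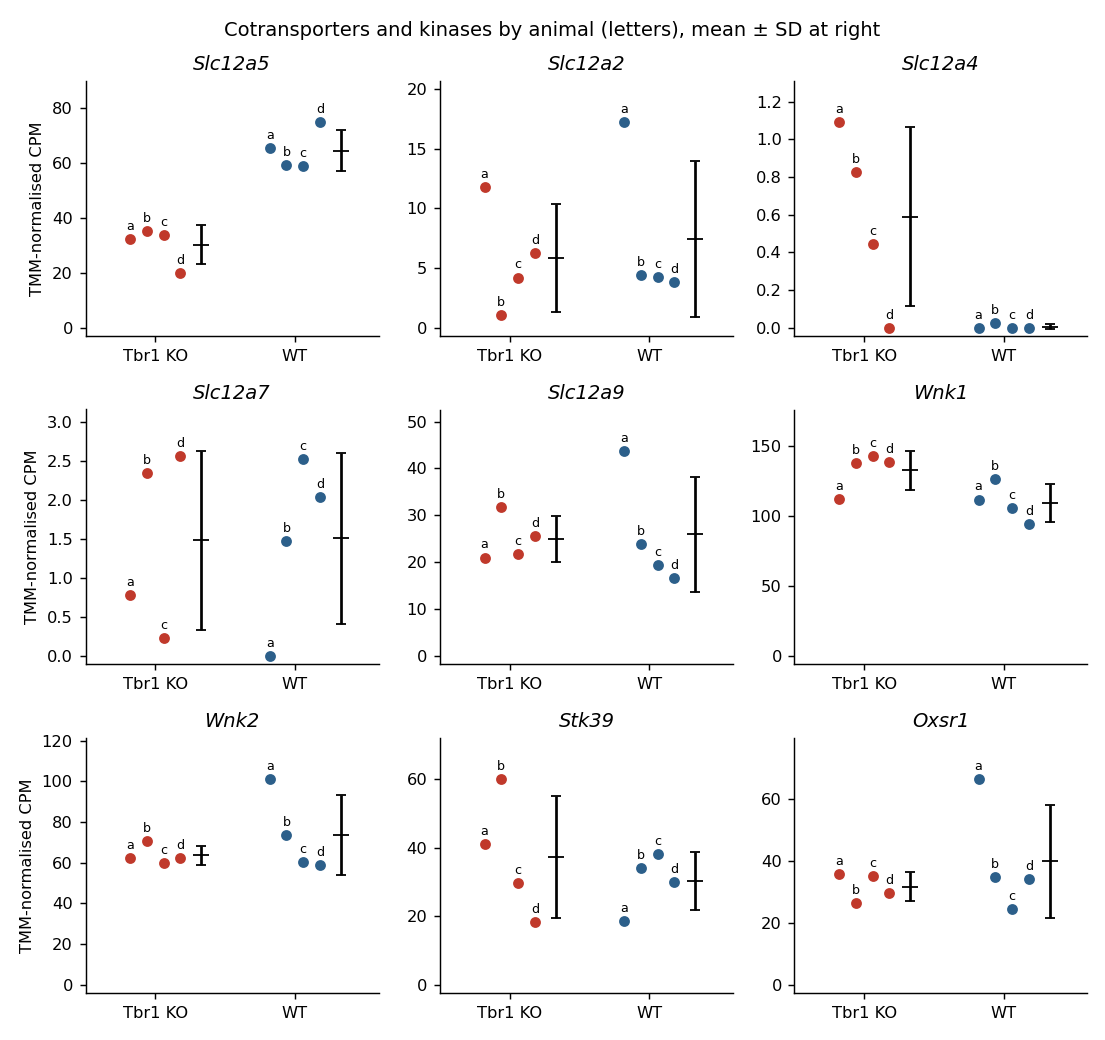
TMM-normalised CPM of the 9 genes in each animal (letters), Tbr1 KO left of WT, with the mean ± SD of the 4 animals in black. Slc12a5 is the gene whose KO and WT animals do not overlap (19.8 to 35.1 CPM in KO animals and 58.7 to 74.7 CPM in WT animals) among the 8 that passed the filter.

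To compare genes with each other, levels were divided by the length of each gene's merged exons in GENCODE M21. On this per-length scale Slc12a5 was at 4.06 ± 0.941 CPM per kb in KO animals and 8.65 ± 1.0 CPM per kb in WT animals (SD, n = 4 each). In KO animals the order by mean was Stk39 at 7.51, Wnk2 at 7.50, Oxsr1 at 5.93, Wnk1 at 5.82, Slc12a9 at 4.99, Slc12a5 at 4.06, Slc12a2 at 0.533, Slc12a4 at 0.138 and Slc12a7 at 0.117 CPM per kb. In WT animals it was Wnk2 at 8.67, Slc12a5 at 8.65, Oxsr1 at 7.47, Stk39 at 6.09, Slc12a9 at 5.17, Wnk1 at 4.80, Slc12a2 at 0.679, Slc12a7 at 0.119 and Slc12a4 at 0.00151 CPM per kb. Slc12a5 was therefore sixth of the 9 in KO animals and level with the first in WT animals.

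Few neighbours in these orders were separate. In KO animals the ranges of neighbours did not overlap between Wnk2 and Oxsr1 and between Slc12a5 and Slc12a2, and in WT animals between Wnk1 and Slc12a2 and between Slc12a2 and Slc12a7, while all other neighbours overlapped. Slc12a9 and Slc12a5 overlapped in KO animals, with Slc12a9 above in 2 of 4. In WT animals Slc12a5 overlapped with both of its neighbours, Wnk2 and Oxsr1, and was above Wnk2 in 2 of 4 animals. With the longest transcript as the length, Wnk1 was first in KO animals at 11.7 and the third in WT animals at 9.66 CPM per kb, while Slc12a5 was sixth in KO animals at 5.01 and first in WT animals at 10.7 CPM per kb.

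**Figure D3:**
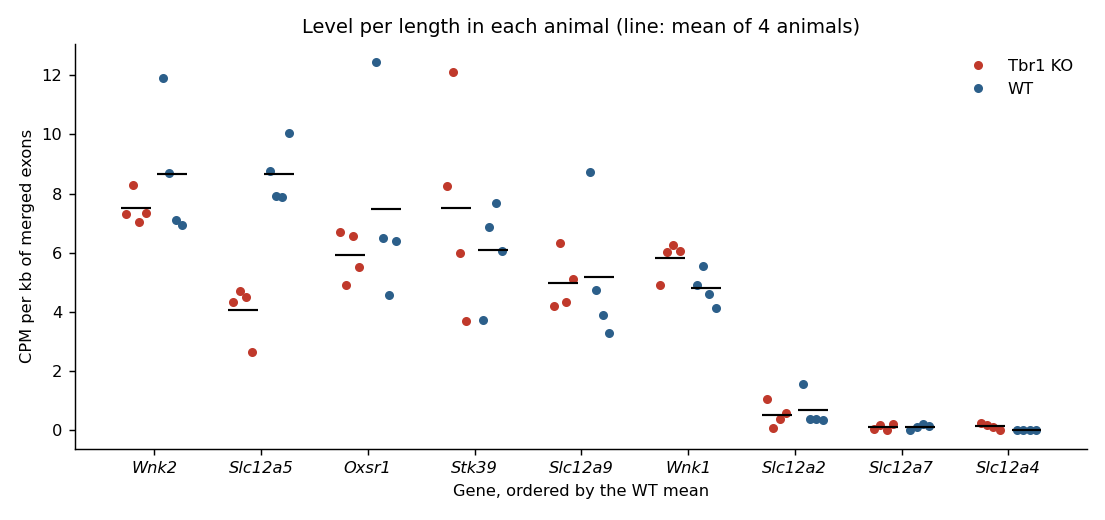
CPM per kb of merged exons for the 9 genes in each animal, Tbr1 KO points left of WT points for each gene and a line at the mean of 4 animals. Slc12a5 averages 4.06 CPM per kb in KO animals and 8.65 CPM per kb in WT animals, and Slc12a2, Slc12a7 and Slc12a4 are the lowest genes in both.

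The outward transporter KCC2 and the inward transporter NKCC1 act against each other, so their per-length levels were also set against each other within each animal. Slc12a5 exceeded Slc12a2 in all 8 animals. The ratio was 4.03, 48.6, 11.7 and 4.64 in KO animals a to d, against 5.55, 19.8, 20.3 and 28.8 in WT animals a to d. KO animal b, with 6 and 53 reads of Slc12a2 in its pools, had the highest ratio of all, and KO animal a, KO animal d and WT animal a the lowest. On the log2 scale the ratio averaged 3.34 ± 1.65 in KO animals and 3.99 ± 1.04 in WT animals (SD, n = 4 each), a difference of -0.65 that is smaller than either SD.

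The profile of Slc12a5 over the 8 animals was set against 7771 other genes with a mean of at least 16 CPM. The measure was the root mean square difference of log2 CPM after centring each gene on its own mean, for which the median over these genes was 0.67. The 5 nearest genes were Magi1, a scaffold protein of cell junctions, at 0.19, the leucine-rich repeat adhesion protein Flrt2 at 0.19, Cwf19l1 at 0.23, the mitochondrial ribosomal protein Dap3 at 0.23 and the cytokine signalling suppressor Socs6 at 0.25. Their log2 fold changes between KO and WT animals lay from -1.20 ± 0.28 (Flrt2) to -0.83 ± 0.29 (Cwf19l1, SE), as a description, since they were picked for this profile. Magi1 was at 112, 115, 144 and 91.6 CPM in KO animals a to d, against 213, 263, 217 and 309 CPM in WT animals a to d. Like Slc12a5, it was lowest in KO animal d and highest in WT animal d, an order that picking by profile favours.

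**Figure D4:**
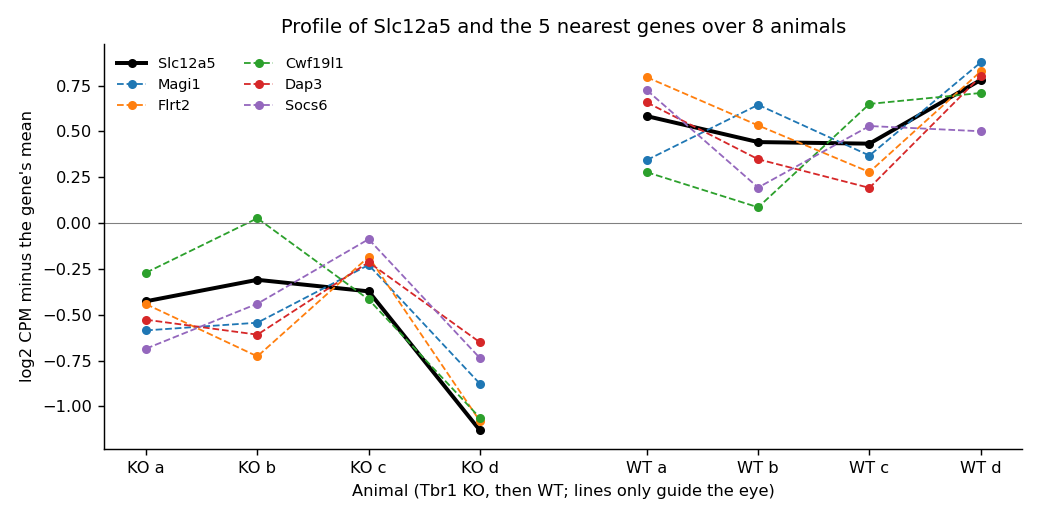
log2 CPM of Slc12a5 (black) and the 5 genes nearest to it, each minus its own mean over 8 animals, with Tbr1 KO animals left of WT animals. Slc12a5 runs from -1.13 in KO animal d to 0.78 in WT animal d. The other 5 genes, picked for their nearness to this profile, also have their lowest value in KO animal d.

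A wider list of 57 genes of the same pathway was read off the same fit. Of these, 54 were tested, and 1 fell, 0 rose and 53 did not pass by edgeR at the same threshold, beside 0.287% of all genes called. Their median log2 fold change was -0.03, beside -0.00071 for all tested genes. The lists were made with other results of these data known.

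The gene that fell was Neto2, 1 of 18 regulators and partners of KCC2. Neto2 is a transmembrane protein known as an auxiliary subunit of kainate receptors, and it also binds KCC2. It was at 23.3, 26.1, 20.7 and 31.6 CPM in KO animals a to d, against 84.8, 56.4, 79.8 and 49.5 CPM in WT animals a to d. No KO animal reached the lowest WT animal. The means were 25.4 ± 4.66 CPM in KO animals and 67.6 ± 17.3 CPM in WT animals (SD, n = 4 each), a log2 fold change of -1.41 ± 0.23 (SE) with an adjusted p of 0.0201 by edgeR (Benjamini-Hochberg over all tested genes). Library by library it was 22.3, 25.1, 20.3, 36.0, 20.7 and 31.5 CPM in KO libraries 1 to 6, against 84.5, 46.8, 89.3, 79.5 and 49.3 CPM in WT libraries 1 to 5. All 6 KO libraries were again below all 5 WT libraries, although the pools of WT animal b stood far apart.

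The call was lost in 5 of the 8 fits without 1 animal. Neto2 had an edgeR adjusted p (Benjamini-Hochberg) of 0.0585 without WT animal b, 0.0815 without WT animal c, 0.0891 without KO animal a, 0.0901 without KO animal b and 0.0951 without KO animal c, with log2 fold changes from -1.49 to -1.32 in those fits. Over all 16 alternatives its adjusted p ranged from 1.82e-06 with DESeq2 to 0.0951, and 11 of them kept it past the threshold. Neto2 lies on chromosome 8, 85636588 to 85700924, on the minus strand, and its exons overlap the microRNA gene Mir8109 on the opposite strand. Its 2 RefSeq windows held 0 matches to AGGTGT, AGGTGTGA or CACGTG. The KO animals did not share 1 order for both genes, since KO animal d was the lowest for Slc12a5 and the highest for Neto2. The amacrine, horizontal and Müller sums given above, higher in every KO animal than in every WT animal, also separate the genotypes. Their part in the change of Neto2 was not tested.

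None of the other 17 KCC2 regulators and partners passed the test. Atp2b2, a plasma membrane calcium pump, was at 114 to 130.4 CPM in KO animals and 87.0 to 113.0 CPM in WT animals, without overlap, at a log2 fold change of 0.26 ± 0.13 (SE). Prkcd, a protein kinase C, was at 59.1 to 99.4 CPM in KO animals and 93.4 to 119 CPM in WT animals (-0.35 ± 0.17). Usf1, an E-box binding factor, was at 54.5 to 64.6 CPM in KO animals and 30.8 to 68.8 CPM in WT animals (0.45 ± 0.25). Their edgeR adjusted p (Benjamini-Hochberg) ran between 0.737 and 0.784.

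Among 3 further members of the cotransporter family, Slc12a1 and Slc12a3, the renal cotransporters, did not pass the filter on low counts. Slc12a8, a distant family member, was at 0.682 to 4.41 CPM in KO animals and 1.19 to 2.53 CPM in WT animals, with overlap. Slc12a8 had a log2 fold change of 0.59 ± 0.91 (SE) with an adjusted p of 0.970 by edgeR (Benjamini-Hochberg).

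Of 14 regulators of the WNK and SPAK kinases, 0 passed the test and 1 had an unadjusted p under 0.05, a share near the 7.09% of all genes. That gene was Wnk4, a WNK kinase best known from the kidney, at 6.42, 10.3, 20.9 and 4.76 CPM in KO animals a to d, against 4.80, 1.58, 5.02 and 3.71 CPM in WT animals a to d. Its log2 fold change was 1.49 ± 0.57 (SE) with an edgeR adjusted p of 0.573 (Benjamini-Hochberg). The highest value was in KO animal c, which also had the highest photoreceptor and bipolar sums, 689 and 262 CPM, and the log2 fold change without that animal was 0.93. Klhl3 and Cul3, which encode parts of a ubiquitin ligase for WNK kinases, had log2 fold changes of -0.65 ± 0.47 and -0.44 ± 0.33 (SE), and Cab39l, a scaffold of SPAK and OSR1, had one of -0.26 ± 0.23. All 3 genes overlapped between genotypes.

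The last list, of genes for other chloride transport or linked to it, gave 0 calls among 21 tested genes. Of these, 3 had an unadjusted p under 0.05, beside 7.09% of all genes. Lrrc8a, the essential subunit of the volume-regulated anion channel, was at 31.3, 21.7, 28.7 and 31.9 CPM in KO animals a to d, against 56.9, 48.6, 34.9 and 33.1 CPM in WT animals a to d, without overlap. Its log2 fold change was -0.61 ± 0.23 (SE). Ttyh1 and Ttyh2 encode tweety family membrane proteins. Ttyh1 was at 14.4 to 47.1 CPM in KO animals and 35.4 to 55.6 CPM in WT animals (-0.77 ± 0.31). Ttyh2 was at 9.22, 38.7, 139 and 24.4 CPM in KO animals a to d, against 10.3, 5.70, 3.40 and 21.4 CPM in WT animals a to d, with KO animal c again the highest. The log2 fold change of Ttyh2 was 2.38 ± 0.78 (SE), and 1.25 without KO animal c. Slc4a3, an anion exchanger of chloride and bicarbonate, was at 124 to 200.3 CPM in KO animals and 168 to 225 CPM in WT animals (-0.34 ± 0.16). By edgeR with Benjamini-Hochberg adjustment, adjusted p over Lrrc8a, Ttyh1, Ttyh2 and Slc4a3 was 0.469 to 0.720. The part of the photoreceptor markers in the values of Wnk4 and Ttyh2 was not tested.

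**Figure D5:**
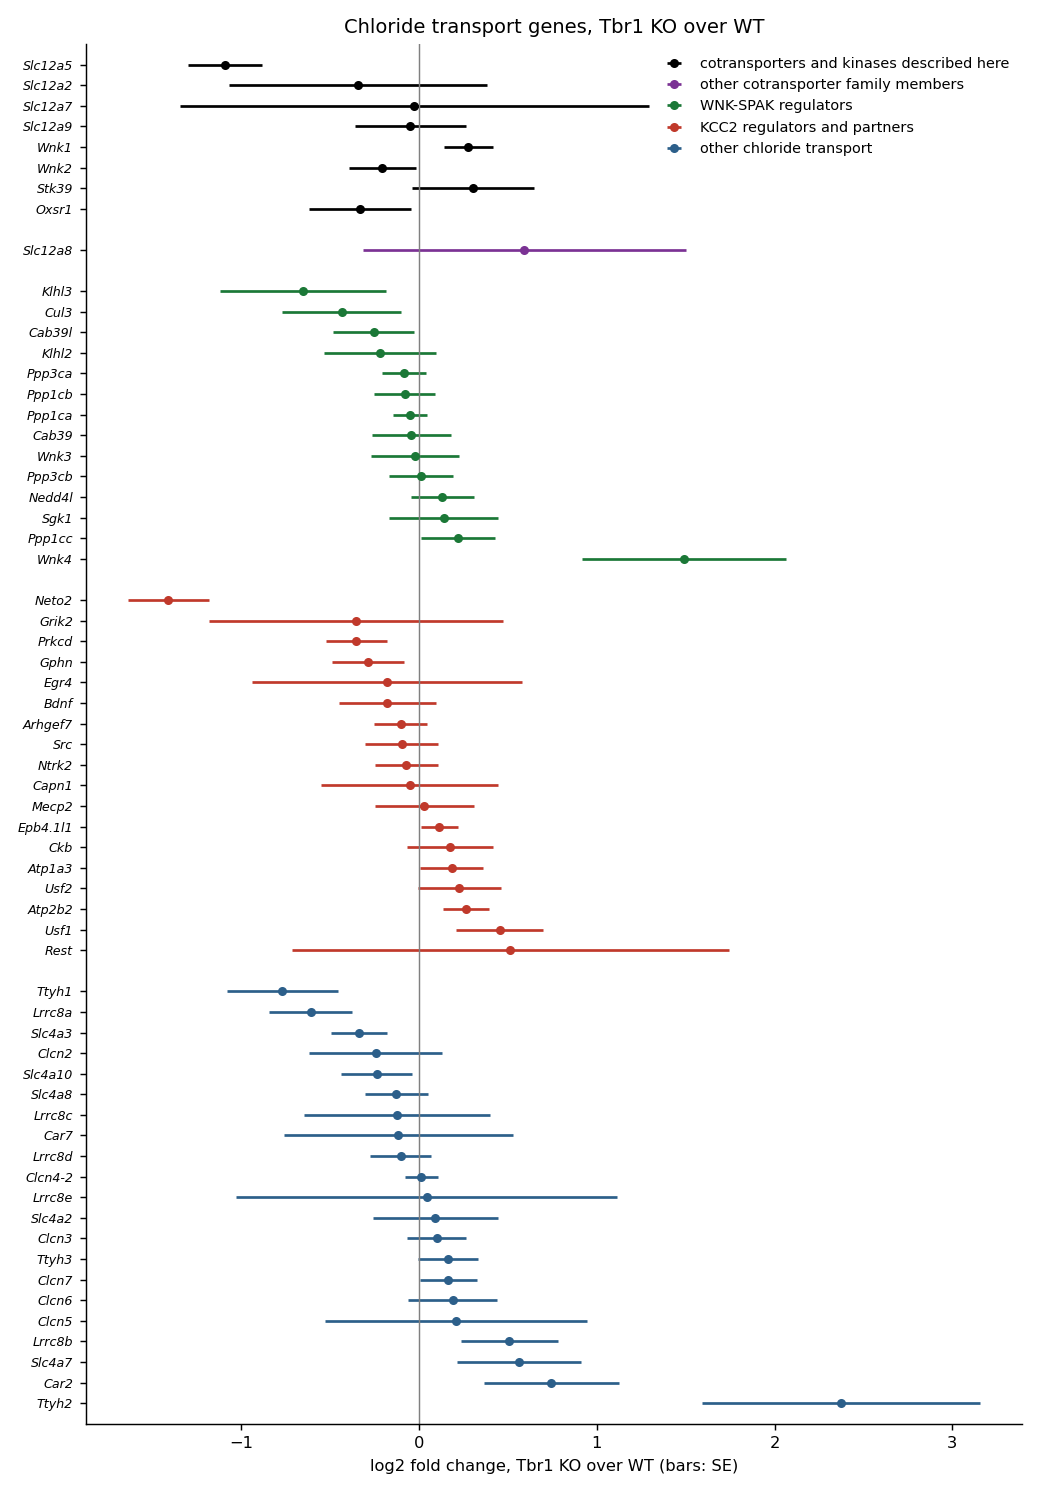
log2 fold change of Tbr1 KO over WT with its SE for the 8 tested genes of the set (black) and for 54 further genes of the pathway, coloured by list. Neto2 at -1.41 is the 1 gene of the 54 past the threshold, and Slc12a5 lies at -1.09.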

How the data were processed

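Transcripts were sequenced from 11 pools of sorted J-RGCs, 6 Tbr1 KO and 5 WT, by Smart-seq2 with Nextera XT per the labels' protocols. Each library has a deposited table of raw counts by gene symbol. The submitters' processing notes name Trimmomatic 0.32, TopHat2 2.0.10, HTSeq 0.6.1 and the mouse build mm10 (GRCm38). No source used here gives their roles, the annotation or a strand setting, so reads of a gene and an antisense partner may be mixed. Lines that name no gene, 36.1% to 39.9% of the reads listed, were left out of library sizes and tests. The reads carry no molecular identifiers, so counting limits cover counting error only.

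Counts of 1 animal's libraries were summed, giving 4 replicates per genotype. After filterByExpr 13957 genes were left. They were scaled by TMM and fitted with edgeR 4.0.16 (R 4.3.3, robust quasi-likelihood), and p-values were adjusted by Benjamini-Hochberg, with calls under 0.05. SEs were taken as |log2 fold change| over the square root of F. Marker lists used log2(CPM + 0.5). Lengths and positions came from GENCODE M21 (GRCm38), promoter windows from RefSeq (GRCm38.p6), and plots from matplotlib 3.10.9. The genes, lists and naming rule were chosen with earlier results of these data known. The rule named the 9 genes, Tbr1, the 5 nearest profiles (predicted genes left out) and up to 4 genes per pathway list, those past the threshold first and then those with the lowest p. Of the lists, 1 gene is not reported here. Jam2 and the other markers come from the marker lists. Alternatives were other scalings (RLE, upper quartile), filters, DESeq2 1.42.0, other units of replication, a replicate block, another gene length and leaving out each animal.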

Additional observations from a re-analysis of the deposited data

Results flagged for a closer look

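Among 18 groups of 4 animals examined (8 genes of the set and Neto2 in both genotypes), 2 held an animal whose distance from its nearest neighbour, as a share of the group's range, passed Dixon's critical value for 4 samples. Chance gives about 1 such group in 20. Slc12a2 was at 17.2 CPM in WT animal a, against 4.38 CPM in the next WT animal, a share of 0.957. Wnk1 was at 112 CPM in KO animal a, against 138 CPM in the next KO animal, a share of 0.844.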

How the results depend on the processing

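The log2 fold change of Slc12a5 kept its sign in all 16 alternatives, from -1.21 to -0.86. The number of genes of the set past the threshold was 0 in the summed fit and 1 with DESeq2, with libraries as replicates (which treats pools of 1 animal as replicates) and with 1 library per animal. The set was chosen with this comparison known, so these counts are no test of its genes. The number of genes past the threshold, 40, was 262 with DESeq2, 84 with libraries as replicates and 17 to 44 without 1 animal, with 18 without WT animal b, 22 without KO animal a, 17 without KO animal b and 25 without KO animal d. The pathway count of 1, Neto2, was 0 to 1 without 1 animal (0 without WT animal b or c or KO animal a, b or c), and the log2 fold change of Neto2 ranged from -1.53 to -1.28 over all alternatives. Whether the replicate numbers of the titles pair the libraries cannot be decided here. Deviations of same-numbered libraries correlated at -0.03 to 0.14, and 4 of 10 libraries correlated best with their own number. Each was set against 5 libraries of the other genotype, so some such matches arise by chance. By the same measure pools of 1 animal correlated at -0.25 (WT animal b), -0.11 (KO animal a) and -0.20 (KO animal b). Deviations were taken from the mean of each genotype, which pulls libraries of 1 genotype towards negative correlation. The values for pools are thus not on the scale of the same-numbered pairs, which cross genotypes. They cannot show whether the measure would find a shared origin. With the replicate block, 43 genes passed the threshold and the log2 fold change was -0.86 for Slc12a5 and -2.10 for Slc12a7. The cause of these shifts was not tested. For Slc12a7, a count of 0 did not follow depth in 1 pair of libraries. It had 0 reads in KO library 3, with 34564970 reads in genes, and 43 reads in WT library 3, with 8609845. Zero counts of other genes were not set against depth.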
